A study of Mus musculus with 6 samples.

Results

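The 7 genes described here are the cell cycle inhibitor genes Cdkn2a and Cdkn2b and 5 protein-coding genes around them on mouse chromosome 4. They were taken by symbol and chromosome from a table of 54532 genes, and in chromosome order they are Focad, Klhl9, Mtap, Cdkn2a, Cdkn2b, Dmrta1 and Elavl2. RNA sequencing was done on 6 libraries whose labels name lung, 3 labelled young (mice aged 3 months) and 3 labelled aged (mice aged 18 months). The labels state neither genotype nor whether libraries come from separate mice, so the p-values below rest on a library-to-library spread that may be technical. The locus was chosen by the almost absent reads of Cdkn2a and Cdkn2b, so the FPKM values and reads of those genes are a description, with no test.

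Cdkn2a encodes a pair of unrelated proteins from alternative first exons. The protein p16Ink4a binds the cyclin D kinases CDK4 and CDK6 and blocks their activity, and p19Arf binds MDM2, the ubiquitin ligase that degrades p53. Cdkn2b encodes p15Ink4b, a close relative of p16Ink4a. The locus is a classical marker of cellular ageing, kept low in young tissue by Polycomb repressors, and it is often inactivated in tumours and in cultured cell lines. Mtap, its neighbour, encodes the enzyme that recycles methylthioadenosine from polyamine synthesis.

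The tissue label was checked first against defining markers. Of 11 markers of lung epithelium, endothelium and blood, 10 stayed under 1 FPKM (fragments per kilobase of gene, scaled to library size) in every library. Among them, the alveolar surfactant gene Sftpc had 4 reads in all, 3 of them in young-labelled libraries. The exception was Cd68, a lysosomal protein of macrophages, at 6.98 ± 0.989 FPKM in the young-labelled libraries and 16.1 ± 0.601 FPKM in the aged-labelled ones (mean ± SD, n = 3 libraries a group, as in all values that follow), beside Ptprc, the CD45 antigen of all leukocytes, at no more than 0.0797 FPKM in either group mean. Most of the low markers had more reads in the aged-labelled libraries. Summed reads in the young-labelled and aged-labelled libraries were 1 and 16 for Sftpb, 3 and 16 for Scgb1a1 and 0 and 8 for Foxj1. They were 16 and 57 for Cdh5 and 19 and 75 for Ptprc. Besides Sftpc, Hbb-bs (8 and 0) and Ager (63 and 57) went the other way. Vim, the mesenchymal filament protein vimentin, stood at 495 ± 15.3 and 497 ± 5.73 FPKM, and Mki67, the Ki-67 antigen of dividing cells, at 76.0 ± 1.87 and 54.3 ± 2.07 FPKM. Col1a1, a collagen gene, had means of 245 FPKM in the young-labelled and 164 FPKM in the aged-labelled libraries, and Pdgfrb 21.4 and 23.4 FPKM. Whole lung tissue is thus not borne out by the 11 markers in either group. Those markers do not cover mesenchymal cells of the lung, and whether the cells came from lung was not tested. The groups are named only by their age labels. In bulk RNA, fewer cells of a type and less RNA per cell cannot be told apart.

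The promoter sequences at the centre of the locus are shown because the annotation places the start of an expressed noncoding RNA beside that of Cdkn2a. RefSeq (GRCm38.p6, the same assembly as mm10) starts Gm12610, a long noncoding RNA for which it lists the synonym ANRIL, at position 89295180 on the plus strand. The upstream start of Cdkn2a, which gives p19Arf, lies at 89294619 on the minus strand, so that 560 bases separate the 2 divergent starts. RefSeq extends Gm12610 to 89518621, across the whole of Cdkn2b (89306289 to 89311032), on the opposite strand. The table's own row for Gm12610 is shorter and begins 111 kb beyond Cdkn2b. Each sequence is written 5′ to 3′ on its gene's strand and stops before the first annotated base of the transcript. Capitals mark matches, on either strand, to the GC box GGGCGG, the CCAAT box CCAAT, the cyclic AMP response element TGACGTCA and the TATA box TATAAA.
Cdkn2a, p19Arf start, chr4:89294654-89294869, minus strand: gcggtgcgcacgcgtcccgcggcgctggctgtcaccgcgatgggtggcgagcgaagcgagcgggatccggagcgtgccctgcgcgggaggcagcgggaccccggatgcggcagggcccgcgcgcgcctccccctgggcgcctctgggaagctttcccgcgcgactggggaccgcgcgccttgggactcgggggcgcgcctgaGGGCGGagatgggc
Gm12610, RefSeq start, chr4:89294930-89295179, plus strand: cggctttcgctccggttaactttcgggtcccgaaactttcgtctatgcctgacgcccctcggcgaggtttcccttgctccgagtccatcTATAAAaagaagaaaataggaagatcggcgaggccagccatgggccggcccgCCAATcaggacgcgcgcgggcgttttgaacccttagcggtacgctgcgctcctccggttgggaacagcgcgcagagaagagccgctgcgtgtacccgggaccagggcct
Cdkn2a, p16Ink4a start, chr4:89282193-89282442, minus strand: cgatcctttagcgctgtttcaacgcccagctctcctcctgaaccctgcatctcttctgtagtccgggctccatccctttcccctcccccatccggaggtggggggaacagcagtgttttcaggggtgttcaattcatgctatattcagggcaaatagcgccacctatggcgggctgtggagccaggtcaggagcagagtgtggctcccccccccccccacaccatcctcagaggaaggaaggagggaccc
Cdkn2b, chr4:89311040-89311282, minus strand: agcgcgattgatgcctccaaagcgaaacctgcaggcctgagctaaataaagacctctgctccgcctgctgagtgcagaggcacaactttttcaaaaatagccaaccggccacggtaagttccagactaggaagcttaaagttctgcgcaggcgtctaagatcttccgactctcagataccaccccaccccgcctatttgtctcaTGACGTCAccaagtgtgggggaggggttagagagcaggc

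These promoters differed in their content of CG dinucleotides, the sites of DNA methylation. Counted in the RefSeq window of 300 bases around each start, the p19Arf start had 45 and the Gm12610 start 37. The Cdkn2b start had 18 and the p16Ink4a start 12. Over all 32851 RefSeq promoter windows the median was 7 and the upper quartile 20. The p19Arf window held 3 matches to the GC box, a sequence found in 35.7% of all windows, and 1 of them lies in the printed bases. The p16Ink4a window held 1 GC box and 1 CCAAT box and the Cdkn2b window 1 GC box, all outside the printed bases. The Cdkn2b window held the cyclic AMP response element, which 1.79% of windows hold. The Gm12610 window held 1 TATA box, present in 13.6% of windows, and 1 CCAAT box, present in 37.4%. These matches are descriptions of the letters, and methylation was not measured here.

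Cdkn2a (ENSMUSG00000044303, chromosome 4, 89274471 to 89294653, minus strand, mm10) was close to silent in all 6 libraries. In the young-labelled libraries it stood at 0.248, 0.246 and 0.0494 FPKM, from 5, 5 and 1 reads. In the aged-labelled ones it stood at 0, 0.0503 and 0 FPKM, from 0, 1 and 0 reads. The highest values were in young-labelled libraries, and the groups overlapped, since the third young-labelled library and the second labelled aged had 1 read each. Summed over a group, 11 reads have an exact 95% Poisson interval of 5.49 to 19.7 and 1 read an interval of 0.0253 to 5.57. The intervals describe each sum and do not compare the groups. They cover counting error only, and 3 reads over a group correspond to 0.0494 and 0.0499 FPKM. The gene row does not separate p16Ink4a from p19Arf.

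Cdkn2b (ENSMUSG00000073802, 89306299 to 89311039, minus strand) had a single read, in the first young-labelled library, and 0 reads in the other libraries. In the aged-labelled libraries the exact two-sided 95% Poisson limit of the 0 reads is 3.69 reads over the group, and the lower floor of 3 reads, used for all genes, corresponds to 0.0420 FPKM. None of the 1120 words of 50 bases in Cdkn2a transcripts, nor of the 1341 in Cdkn2b transcripts, occurred in another gene's transcripts (GENCODE M21), so neither model shares a stretch of that length with another. Low counts of this order were common. Of 22046 protein-coding genes, 6793 (30.8%) had no more reads in all 6 libraries together than the 12 of Cdkn2a. RNA levels do not measure whether the DNA of the locus is present or how its chromatin is marked.

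**Figure D1:**
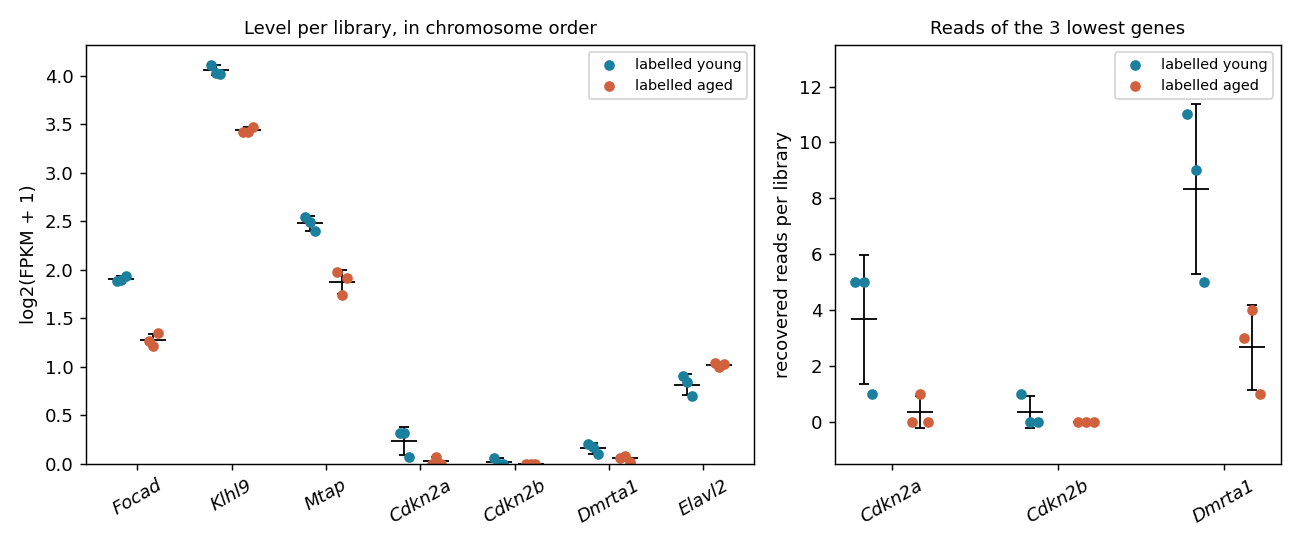
Left, log2(FPKM + 1) of the 7 genes in each library, in chromosome order. Right, recovered reads per library for the 3 lowest genes. Points are libraries and black marks are means with SD. Klhl9 is highest and Cdkn2b lowest, and Focad, Klhl9 and Mtap are lower in every aged-labelled library.

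Mtap (ENSMUSG00000062937, 89137122 to 89181081, plus strand), the nearest coding neighbour with reads in every library, was expressed. It ended 93.4 kb from Cdkn2a and stood at 4.84, 4.62 and 4.27 FPKM in the young-labelled libraries and at 2.94, 2.34 and 2.78 FPKM in the aged-labelled ones. Every aged-labelled library was below every young-labelled library. Mtap was 1.71-fold lower, at 2.69 ± 0.310 against 4.58 ± 0.287 FPKM, with a log2 fold change of -0.60 ± 0.08 (SE, on the log2(FPKM + 1) scale) and limma adjusted p = 0.000670.

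Klhl9 (ENSMUSG00000070923, 88718292 to 88722465, minus strand), a substrate adaptor of the cullin-3 ubiquitin ligase that acts on the mitotic kinase Aurora B, was the most abundant of the 7 genes. Its values were 16.3, 15.3 and 15.3 FPKM in the young-labelled libraries and 9.74, 9.73 and 10.1 FPKM in the aged-labelled ones, with no overlap between groups. Klhl9 was 1.59-fold lower, with a log2 fold change of -0.62 ± 0.04 and limma adjusted p = 3.45e-05. The row Gm26566, which overlaps Klhl9 on the opposite strand and shares 612 of its 4125 words of 50 bases, was listed with 0 reads.

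Focad (ENSMUSG00000038368, 88094629 to 88411011, plus strand) encodes focadhesin, a protein that supports the SKI complex of RNA decay. It stood at 2.68, 2.72 and 2.82 FPKM in the young-labelled libraries and at 1.40, 1.32 and 1.54 FPKM in the aged-labelled ones, again without overlap. Focad was 1.93-fold lower, with a log2 fold change of -0.63 ± 0.06 and limma adjusted p = 0.000214. Its end overlaps Hacd4, on the other strand, and no source used here says whether counting used strand, so reads in the overlap cannot be told apart. Hacd4, a dehydratase of fatty acid elongation, stood at 1.345 ± 0.0603 and 1.38 ± 0.208 FPKM.

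On the far side of Cdkn2b the coding genes were lower. Dmrta1 (ENSMUSG00000043753, 89679436 to 89694772, plus strand), a transcription factor gene of the doublesex family, starts 368 kb from Cdkn2b and had 11, 9 and 5 reads in the young-labelled libraries and 3, 4 and 1 in the aged-labelled ones. Those are 0.115 ± 0.0423 and 0.0372 ± 0.0215 FPKM, under the minimum of 0.5 FPKM in 3 libraries set for testing, so no test was made although the groups did not overlap. Of the other 6 DMRT family genes examined, Dmrtc2 alone was tested, with limma adjusted p = 0.566, at 0.4999 ± 0.197 and 0.601 ± 0.167 FPKM.

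Elavl2 (ENSMUSG00000008489, 91250763 to 91400785, minus strand), an RNA-binding protein gene best known in neurons, lies 1.94 Mb from Cdkn2b and is the nearest coding gene on that side at 0.5 FPKM or more in all 6 libraries. It stood at 0.873, 0.790 and 0.627 FPKM in the young-labelled libraries and at 1.06, 1.0 and 1.04 FPKM in the aged-labelled ones. All 3 aged-labelled libraries were above the young-labelled ones, but the difference did not pass the threshold (log2 fold change 0.21 ± 0.09, limma adjusted p = 0.0790). It passed with median centring (adjusted p = 0.0314), without the mean-variance trend (adjusted p = 0.0276) and with limma's voom on recovered reads (adjusted p = 0.00814). None of 8 neuronal markers was tested, and their summed level ran from 0.204 to 0.312 FPKM in the young-labelled libraries and from 0.236 to 0.381 FPKM in the aged-labelled ones. Its ubiquitous relative Elavl1 (HuR) stood at 8.48 ± 0.350 and 8.12 ± 0.291 FPKM, and the neuronal Elavl3 and Elavl4 were not tested.

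In sum over the 7 genes, 4 passed the filter on low values, of which 3 were lower, 0 higher and 1 short of the threshold, with a median log2 fold change of -0.61. Over all 15197 tested genes the aged-labelled libraries were lower for 32.3% and higher for 27.7%, 60.0% in either direction, with a median of -0.03. That balance depended on the settings: 4212 genes were higher and 4903 lower here, against 4988 and 4026 with median centring, which moved the median to 0.04, and 4814 and 4516 without a filter on low values. With that many genes called, 3 lower genes are not set apart from the rest by their count.

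Noncoding RNAs with reads in every library lay on both sides of Cdkn2a and Cdkn2b, on the Mtap side only beyond Mtap itself. Between Mtap and Cdkn2a, the noncoding rows Gm26490, Tgif2-ps1 and Gm12606 had 0 reads. The rows of this and the next paragraph were named after their values were seen. Gm12610 (ENSMUSG00000086035, 89421848 to 89463487, plus strand, in the table) had the highest mean of the interval in the young-labelled libraries. It stood at 24.9, 24.8 and 26.1 FPKM in the young-labelled libraries and at 13.4, 15.9 and 15.4 FPKM in the aged-labelled ones. It was 1.69-fold lower without overlap, with a log2 fold change of -0.73 ± 0.06 and limma adjusted p = 0.000115. Gm12609 (89381957 to 89399880, plus strand), which RefSeq lists as a synonym of Gm12610, begins 70.9 kb from Cdkn2b and was 1.78-fold lower, at 1.82 ± 0.571 against 3.23 ± 0.445 FPKM. Its limma adjusted p was 0.0173, and 0.0573 without the third young-labelled library and 0.0511 without a filter on low values. Whether the reads on these rows come from transcripts that begin at the RefSeq start beside Cdkn2a was not tested.

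On the Mtap side, Gm12602 (ENSMUSG00000085569, 89100664 to 89128226, minus strand) points away from Mtap, with 8.89 kb between the starts. It stood at 4.83, 4.84 and 4.09 FPKM in the young-labelled libraries and at 17.01, 17.1 and 15.1 FPKM in the aged-labelled ones. It rose 3.58-fold, with a log2 fold change of 1.64 ± 0.07 and limma adjusted p = 8.86e-06, while Mtap fell. No word of 50 bases in Gm12602, Gm12609, Gm12610 or Mtap occurred in another gene. The long intergenic RNA AL805899.1, whose row contains the Mir31 hairpin (88910557 to 88910662) on the same strand, stood at 15.7 ± 0.328 and 16.97 ± 1.65 FPKM. It did not pass the threshold (limma adjusted p = 0.222) except without the third aged-labelled library (adjusted p = 0.00819). Wincr1, named as a WNT-induced noncoding RNA, stood at 3.98 ± 0.821 and 3.92 ± 1.004 FPKM.

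**Figure D2:**
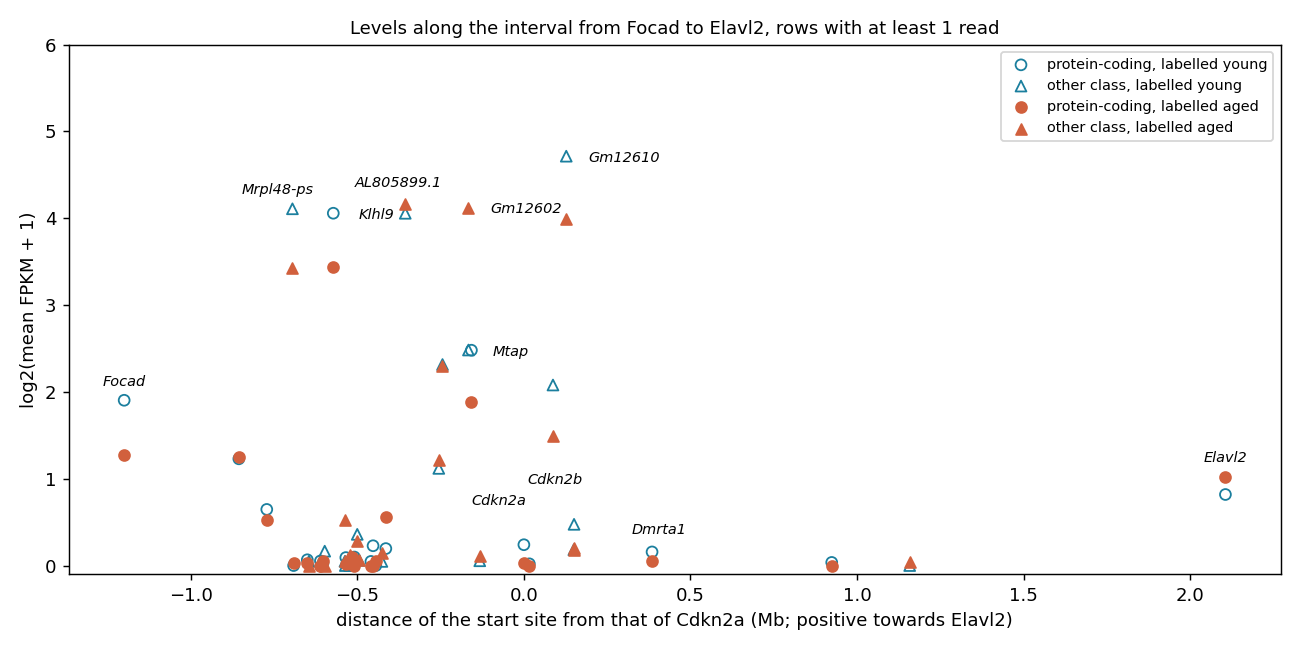
Mean level of every row with at least 1 read between Focad and Elavl2, as log2(mean FPKM + 1), against the distance of its start site from that of Cdkn2a in Mb. Circles are protein-coding genes and triangles other classes, open for labelled young and filled for labelled aged. Cdkn2a, Cdkn2b and Dmrta1 lie near 0, and Gm12610 and Gm12602 stand above them on either side.

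Around Cdkn2a and Cdkn2b the stretch with almost no reads was short when noncoding rows are counted. Without those rows it was long, but it held few coding genes. Between the end of Mtap and the start of Gm12609, 201 kb apart, the table has 5 rows with 13 reads in all, 12 on Cdkn2a and 1 on Cdkn2b. Between the end of Gm12610 and Elavl2 it has 11 rows with 37 reads, of which Dmrta1 had 33, and none exceeded 0.152 FPKM in any library. In the 2.07 Mb between Mtap and Elavl2, no coding gene reached 0.5 FPKM in every library. The only coding rows there are Cdkn2a, Cdkn2b, Dmrta1 and Zfp352, and the locus was chosen by the low reads of Cdkn2a and Cdkn2b. Gm12610, with a young-labelled mean of 25.3 FPKM, lies in the same 2.07 Mb.

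The interval from Focad to Elavl2, 3.31 Mb long, holds 84 rows, of which 43 had 0 reads. Of its 41 protein-coding genes, 5 (12.2%) stood at 0.5 FPKM or more in all 6 libraries, namely Focad, Hacd4, Klhl9, Mtap and Elavl2. The share was 48.6% (17 of 35) in the 5 Mb on either side together, 52.2% (693 of 1327) on chromosome 4 and 49.6% (10943 of 22046) over all chromosomes. Many coding rows of the interval belong to the type I interferon cluster, whose genes are transcribed mainly after viral sensing. Of its 18 rows named Ifn, 8 had 0 reads, and the 16 other than Ifnb1 and Ifne had 20 reads together. Ifnb1, interferon beta, stood at 0.565 ± 0.159 and 0.442 ± 0.166 FPKM, and Ifne, interferon epsilon, had 5 reads in the young-labelled libraries and 16 in the aged-labelled ones. Outside the interferon names, 5 of 24 coding genes (20.8%) reached the level, a count added after the data were seen. Those 24 were set by name and not by position. They still include coding rows with Gm names that lie among the Ifn rows. Those are Gm13271, Gm13272, Gm13275, Gm13276, Gm13277, Gm13278, Gm13279, Gm13283, Gm13285, Gm13287, Gm13288, Gm13289 and Gm13290. The highest of these in any library was Gm13272, at 0.145 FPKM, so none reached the level, and Gm13271 and Gm13285 had 0 reads. The share outside the cluster itself was not counted.

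**Figure D3:**
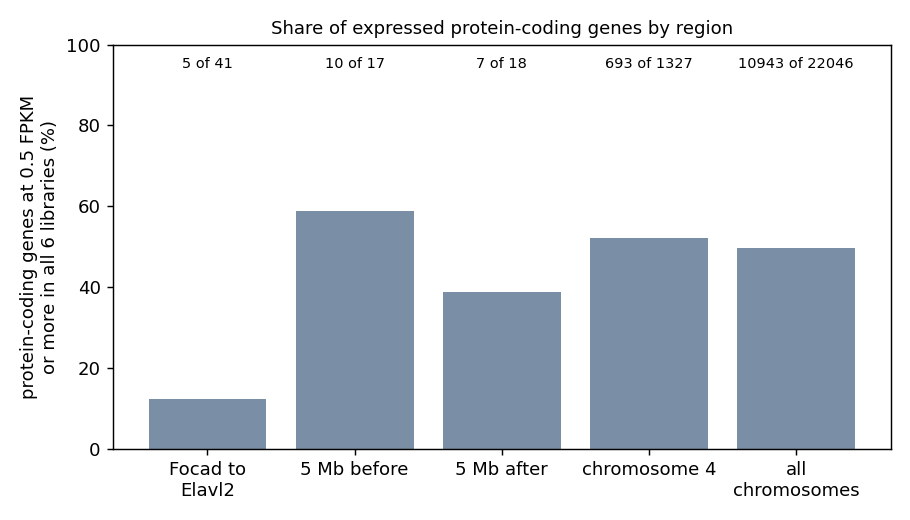
Share of protein-coding genes at 0.5 FPKM or more in all 6 libraries, in percent, for the interval from Focad to Elavl2, the 5 Mb on each side, chromosome 4 and all chromosomes. Counts stand above the bars, and the interval has the lowest share, 5 of 41. Many of those 41 genes belong to the type I interferon cluster.

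Among the 13 rows of the interval that passed the filter, 6 were lower in the aged-labelled libraries, 1 was higher and 6 did not pass the threshold, where 32.3% of all tested genes were lower and 27.7% higher. The lower rows were Focad, Klhl9, Mtap, Gm12609, Gm12610 and Mrpl48-ps, a processed pseudogene that shares 44.6% of its words of 50 bases with other genes, chiefly its parent Mrpl48. Groups did not overlap for 8 of the 13, against 66.9% of all tested genes. The median log2 fold change of the 13 was -0.12. The neighbours Gm12602 and Mtap moved in opposite directions.

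**Figure D4:**
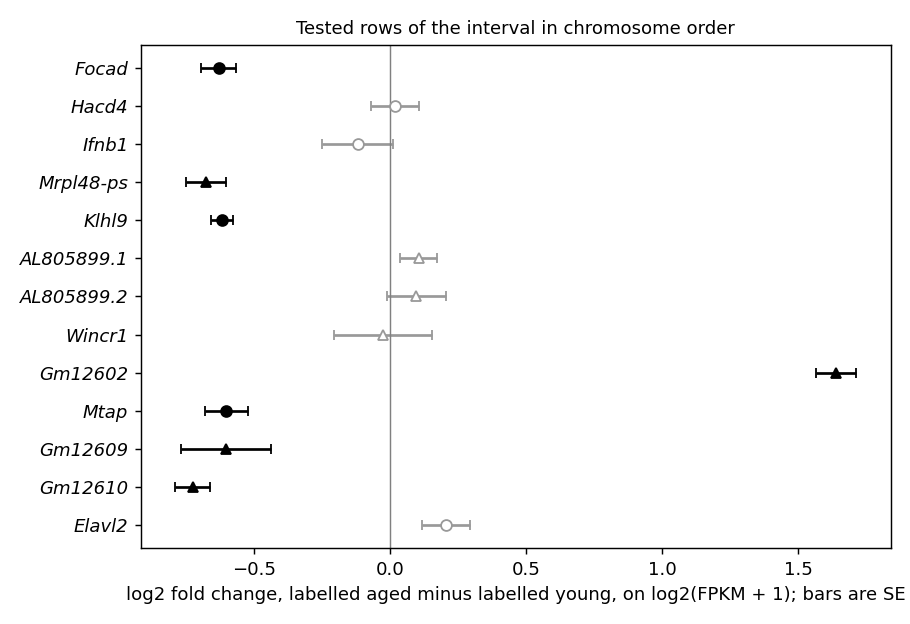
Log2 fold change, labelled aged minus labelled young, of the 13 tested rows of the interval in chromosome order, with SE. Black symbols passed the threshold by limma and grey open ones did not, circles are protein-coding and triangles other classes. Gm12602 at 1.64 is the row that rose.

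The other INK4 genes, which lie outside this interval, were abundant. Cdkn2c, encoding p18Ink4c, stood at 49.8 ± 2.51 FPKM in the young-labelled libraries and 24.9 ± 0.603 FPKM in the aged-labelled ones. Cdkn2d, encoding p19Ink4d, stood at 56.1 ± 2.54 and 24.1 ± 1.17 FPKM. Both fell without overlap, with log2 fold changes of -0.97 ± 0.04 (limma adjusted p = 9.26e-06) and -1.19 ± 0.05 (adjusted p = 6.78e-06). Of the CIP/KIP inhibitors, Cdkn1b (p27) fell 2.09-fold to 12.7 ± 0.288 FPKM and Cdkn1a (p21), a p53 target, rose 5.73-fold to 85.6 ± 1.70 FPKM. Cdkn1c (p57) stayed at 0.170 ± 0.0571 and 0.201 ± 0.0876 FPKM and was not tested.

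**Figure D5:**
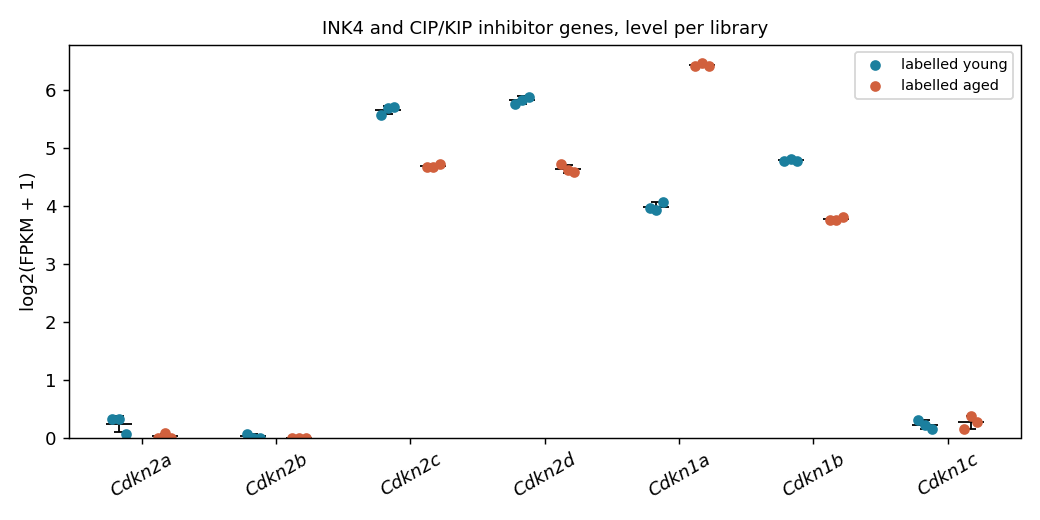
Level of the 4 INK4 and 3 CIP/KIP inhibitor genes in each library as log2(FPKM + 1), with means and SD. Cdkn2a, Cdkn2b and Cdkn1c lie near 0, and Cdkn1a is the member that is higher in the aged-labelled libraries.

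Transcripts of the proteins that INK4 inhibitors act on were all measured above the filter. Of 11 tested genes of cyclin D kinases, D cyclins, RB proteins and E2F factors, 6 were higher, 3 lower and 2 short of the threshold, with a median log2 fold change of 0.16. For comparison, 27.7% of all tested genes were higher and 32.3% lower. Ccnd1, cyclin D1, rose 2.89-fold to 167 ± 2.13 FPKM and Cdk6 rose 1.95-fold to 30.4 ± 0.452 FPKM. The transcription factor gene E2f3 rose 1.90-fold to 10.8 ± 0.715 FPKM, and Ccnd2, cyclin D2, rose 1.90-fold to 29.0 ± 2.10 FPKM. Among the 3 lower genes, Cdk4 fell 1.44-fold from 98.0 ± 2.38 FPKM (limma adjusted p = 0.000205) and Ccnd3, cyclin D3, fell 1.47-fold to 10.7 ± 0.237 FPKM (limma adjusted p = 3.98e-05), both named after their values were seen. On the p19Arf side, 4 of 6 genes were higher and 2 lower, with a median of 0.18. Mdm2 rose 4.07-fold to 49.4 ± 2.01 FPKM and Trp53, the p53 gene, rose 1.97-fold to 77.2 ± 3.41 FPKM. Huwe1, an ARF-binding ubiquitin ligase, was 1.23-fold lower at 21.7 ± 1.16 FPKM, and Ubtf, the RNA polymerase I factor, 1.17-fold higher at 30.7 ± 0.866 FPKM.

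Regulators known to repress or activate the locus moved in both directions. Of 35 tested, 16 were higher, 16 lower and 3 short of the threshold, with a median of -0.13. The shares over all tested genes were 27.7% higher and 32.3% lower. Among Polycomb genes, Ezh2, the histone H3 lysine methyltransferase, was 1.47-fold lower at 22.4 ± 0.568 FPKM, and Cbx7, a chromodomain reader, 1.86-fold lower at 3.37 ± 0.179 FPKM. The Polycomb genes Bmi1, Eed, Phc2 and Cbx6 were higher, named after their values were seen, while more of those listed were lower. Bmi1 was 1.20-fold higher (limma adjusted p = 0.0113) and Eed 1.22-fold higher (limma adjusted p = 0.00388). Kdm6b, the demethylase that removes the Polycomb mark, fell 2.38-fold to 4.31 ± 0.328 FPKM. Hmga2, a chromatin protein known to lower Cdkn2a output in stem cells, rose 7.26-fold to 83.0 ± 2.65 FPKM. Ezh2, Cbx7, Kdm6b and Hmga2 also passed the threshold by limma. The part of any of these regulators in the level of Cdkn2a was not tested.

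Partners of the expressed neighbours gave no common direction. Of 19 tested genes of methionine salvage and polyamine synthesis, Mtap included, 4 were higher, 5 lower and 10 short of the threshold, with a median of 0.01. Here too the shares over all tested genes were 27.7% higher and 32.3% lower. Odc1, the rate-limiting decarboxylase of polyamine synthesis, rose 2.01-fold to 210 ± 10.6 FPKM, and Sat1, which acetylates polyamines for export, fell 1.60-fold to 20.0 ± 0.184 FPKM. Adi1, the dioxygenase of methionine salvage, fell 1.26-fold to 23.1 ± 0.664 FPKM. Mri1, the isomerase that follows Mtap, stood at 3.91 ± 0.526 and 4.6 ± 0.113 FPKM (limma adjusted p = 0.0848, and 0.0462 without the third young-labelled library or 0.0322 with median centring). Prmt5, the arginine methyltransferase that methylthioadenosine inhibits, stood at 24.7 ± 0.505 and 23.2 ± 1.03 FPKM (limma adjusted p = 0.102, and 0.0374 without the first aged-labelled library).

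Of the 8 tested genes in the list of cullin-3 partners and Aurora B complex subunits, Klhl9 included, 3 were higher, 4 lower and 1 not past the threshold. Cul3, the cullin scaffold, was 1.17-fold lower, and Klhl21, another adaptor for Aurora B, 1.41-fold higher. Birc5 (survivin), a partner of Aurora B, was 1.25-fold higher at 51.3 ± 1.14 FPKM. In the list of the SKI complex and its partners, Focad included, 1 of 6 was higher, 3 lower and 2 not past the threshold. Both lists stand beside 27.7% higher and 32.3% lower over all tested genes. Hbs1l, a ribosome rescue factor, was 1.17-fold higher. Skiv2l, the helicase of that complex, was 1.17-fold lower and Ttc37, its scaffold, 1.13-fold lower, and neither passed after median centring (limma adjusted p = 0.0551 and 0.0836).

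Among 11693 tested protein-coding genes, those with the smallest Euclidean distance of log2(FPKM + 1) over the 6 libraries were named for each tested neighbour. They were Cep97 and Dnmt3b for Focad (distances 0.108 and 0.124), Arnt and Dnajc21 for Klhl9 (0.150 and 0.153), Fam57a and Ago1 for Mtap (0.112 and 0.143) and Bicc1 and Adam5 for Elavl2 (0.159 and 0.163). Cep97, for example, had means of 2.78 and 1.45 FPKM where Focad had 2.74 and 1.42 FPKM.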

How the data were processed

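The submitters' processing notes name HISAT2 2.0.5 and mm10. The authors deposited FPKM values for 54532 genes in 6 libraries. No source used here names the counting program, its annotation or its use of strand. In every library 100% of values above 0, times gene length, were whole multiples of a single step (tolerance 0.01), so reads were recovered. They summed to 16649061 to 17456715 per library, and 3 reads on 1 kilobase correspond to 0.173 to 0.177 FPKM. Intervals cover counting error only. Library pairs within a group differed by more than counting noise (chi-square per degree of freedom 2.25 to 4.93), so none was taken as a duplicate deposit. This does not show that they come from separate mice.

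Groups came from the age label. Genes at 0.5 FPKM or more in at least 3 libraries (15197) were tested on log2(FPKM + 1) with limma 3.58.1 in R 4.3.3 (mean-variance trend, two-sided, Benjamini-Hochberg over all tested genes, threshold 0.05). Folds are ratios of mean FPKM. Simulated reads for this comparison, with 15257 genes tested, returned 61% of 100 genes set to 1.5-fold and 72% of 100 set to 2-fold, beside 14 false calls among 15059 others (93.9% and 100% at 5 FPKM or more).

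Named genes were the 7 genes, coding rows of the interval that reached 0.5 FPKM in any library, and from each pathway list up to 4 with the smallest p-values, plus INK4 and CIP/KIP members, Elavl1, Mri1, Adi1 and Prmt5. The genes and lists were chosen with earlier results of these data known. Of the table's positions, 98.1% equalled GENCODE M21, including all 7. Promoters are RefSeq's (GRCm38.p6). Alternatives were other pseudocounts, filters, scalings and moderation, voom on recovered reads, a replicate block and leaving out each library. Tables and plots were made in Python 3.11.15 with pandas 2.3.3, matplotlib 3.10.9, scipy 1.17.1 and numpy 2.4.6.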

Additional observations from a re-analysis of the deposited data

How the results depend on the processing

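Under all alternatives run, Focad, Klhl9 and Mtap kept their direction and their side of the threshold. Leaving out each library in turn gave log2 fold changes of -0.66 to -0.60 for Focad, -0.63 to -0.59 for Klhl9, -0.65 to -0.53 for Mtap and 0.15 to 0.25 for Elavl2. Elavl2 passed the threshold with median centring (log2 fold change 0.27), without the mean-variance trend (0.21) and with voom on recovered reads (0.44), and the cause was not tested. The count of called genes ran from 7806 to 8342 with a library left out and from 8392 to 9510 under the other alternatives, against 9115. Cdkn2a averaged 0.333 reads per library labelled aged, 0 to 0.5 with a library left out, and 3.67 reads per library labelled young, 3 to 5 with a library left out. Of values short of the threshold, 4 changed sign. Hacd4 ran from -0.045 (without the third aged-labelled library) to 0.080 with a library left out. Wincr1 was 0.041 with median centring and ran from -0.15 to 0.15 with a library left out. Elavl1 was 0.011 with median centring. Dmrtc2 ran from -0.0086 (without the first young-labelled library) to 0.18. The share of expressed coding genes in the interval ran from 9.76% to 20.8% over thresholds and classes, and in the flanks from 43.7% to 58.3% over their extent.

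With the replicate number as a block, 8441 genes were called, and Focad, Klhl9 and Mtap kept their calls, while Elavl2 had limma adjusted p = 0.125. Deviations of same-numbered libraries correlated at 0.0056, -0.0079 and 0.019, which gave no sign that the numbers pair the libraries. With 3 libraries a group, these correlations cannot exclude pairing. At this depth, differences of Cdkn2a, Cdkn2b and Dmrta1 between groups were not tested.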
